A study of Rattus norvegicus with 9 samples.

Results

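The proteasome is the protease complex that degrades ubiquitin-tagged proteins, and its genes were followed here in rat dorsal root ganglia during streptozotocin (STZ) diabetes. Members were the probe sets with a single annotated symbol starting with Psma, Psmb, Psmc, Psmd or Psme, with 1 gene of the family not analysed here. Of 10411 genes with a single symbol on the array, 37 were members, represented by the brightest of their 40 probe sets. By name, 15 were core genes (Psma and Psmb) and 22 were regulatory genes (Psmc, Psmd and Psme). Another 6 probe sets carried several symbols and were not used, so Psmb6 and Psme3 were not analysed here, nor were Psma8, Psmb11, Psmc6, Psmd12 and Psmd14. After a filter on dim genes, 36 members remained among 6990 genes tested, of which 14 were core and 22 regulatory. Psmb9 was the member below the filter.

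Expression was measured on 9 arrays from the L4 to L6 ganglia of Sprague-Dawley rats. The groups were rats injected with STZ and given FK1706, rats injected with STZ and given vehicle, and normal rats given vehicle, each sampled after 1, 2 and 3 weeks of dosing. STZ destroys the insulin-producing beta cells, and FK1706 is an immunophilin ligand, named FK in the sample labels, and neither its dose nor the ages of the rats are stated in the labels. Each array held RNA pooled from 5 rats, so a group had 1 pool per week and 3 pools in all. No pools share both a group and a week. The p-values therefore rest on the variation between pools left after group and week. That variation includes any group difference that changes with week, and it is not the spread between rats.

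As background, the core particle is a barrel of stacked alpha and beta rings. The alpha subunits form the gate through which substrates enter, and the beta rings hold the proteolytic sites, carried by Psmb5, Psmb6 and Psmb7 and partly exchanged in the immunoproteasome for inducible subunits such as Psmb8 and Psmb9. The regulatory cap has a base of Psmc ATPases, which unfold substrates, and Psmd subunits of the base and lid, which receive and strip ubiquitin chains. Psmd5, Psmd9 and Psmd10 are assembly chaperones of the base, and Psme genes encode alternative activators. Peripheral sensory neurons keep their axonal proteins in turnover over long distances, for which the ubiquitin-proteasome system is used. Psmc3ip, a meiotic recombination factor, and Psme3ip1, a partner of the activator subunit Psme3, carry a subunit's symbol in their names without being subunits.

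Array medians of the deposited signal ranged between 184.6 and 228.1 in the STZ FK1706 pools, 189.3 and 248.8 in the STZ vehicle pools and 195.1 and 261 in the normal vehicle pools, and were lower in later weeks in each group. Values below are log2 signals after quantile normalization, and differences are relative to the shift this removes. Without it, all genes together had a median log2 difference of -0.07 in STZ FK1706 against STZ vehicle, -0.10 in STZ vehicle against normal vehicle and -0.17 in STZ FK1706 against normal vehicle. For weeks it was -0.20 for week 2 against week 1, -0.22 for week 3 against week 2 and -0.43 for week 3 against week 1. The number of arrays limits the precision, and pairs of arrays correlated with r between 0.969 and 0.981. All 14 sensory neuron markers on the array were above the filter.

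Proteasome genes were steady across the 9 pools. The gap between a member's highest and lowest pool had a median of 0.28 on the log2 scale (1.22-fold), against 0.46 (1.38-fold) over all 6990 genes tested. It stayed under 1.5-fold for 34 of 36 members (94.4%), against 69% of all genes, and the count was 13 of 14 core and 21 of 22 regulatory genes. Members were also brighter than most genes, with a median mean signal of 10.46 against 8.92, and the part of brightness in the steadiness was not tested. The median standard error of a group difference was 0.083 for members and 0.115 for all genes.

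**Figure D1:**
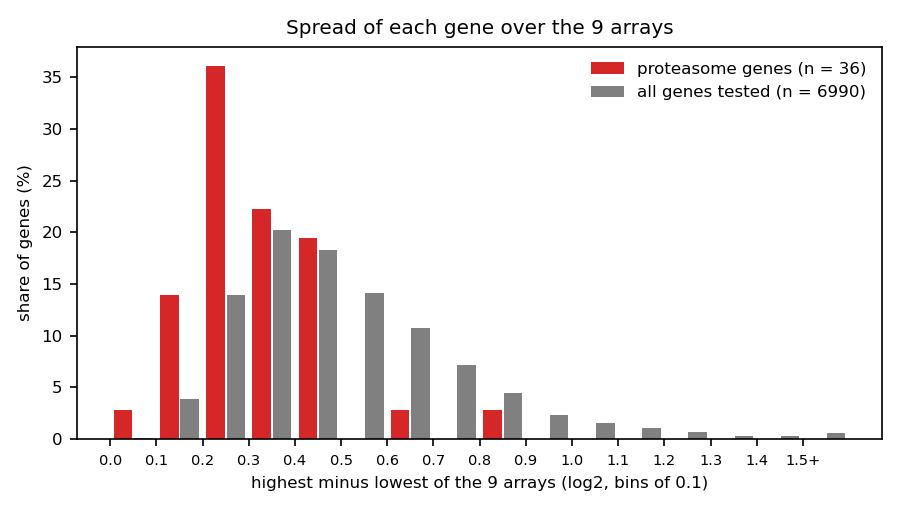
Share of genes (%) by the gap between the highest and lowest of 9 arrays (log2, bins of 0.1), for the 36 proteasome genes tested (red) and all 6990 genes tested (grey). The bin from 0.2 to 0.3 holds 13 of the 36 proteasome genes and 977 of all genes.

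Psmd6, a lid subunit of the cap, and Psma1, an alpha-ring subunit, mark the ends of this spread and were singled out after their values had been seen. Psmd6 had log2 signals of 11.43, 11.43 and 11.44 in the STZ FK1706 pools of weeks 1, 2 and 3, 11.41, 11.44 and 11.45 in the STZ vehicle pools and 11.38, 11.44 and 11.43 in the normal vehicle pools. Its range of 0.072 (1.05-fold) was the narrowest of the 6990 genes after quantile normalization, but ranked 13 after scaling to a common 75th percentile and 617 on the deposited scale. Psma1 had 9.82, 10.60 and 10.26 in the STZ FK1706 pools, 10.16, 10.50 and 10.33 in the STZ vehicle pools and 10.69, 10.06 and 10.28 in the normal vehicle pools. Both ends of its range of 0.87 lay at week 1, the lowest in STZ FK1706 and the highest in normal vehicle, and the groups stood in the opposite order at week 2. Week 2 minus week 1 was 0.79 for Psma1 in STZ FK1706, 0.33 in STZ vehicle and -0.63 in normal vehicle. Psmc3ip followed with a range of 0.69.

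**Figure D2:**
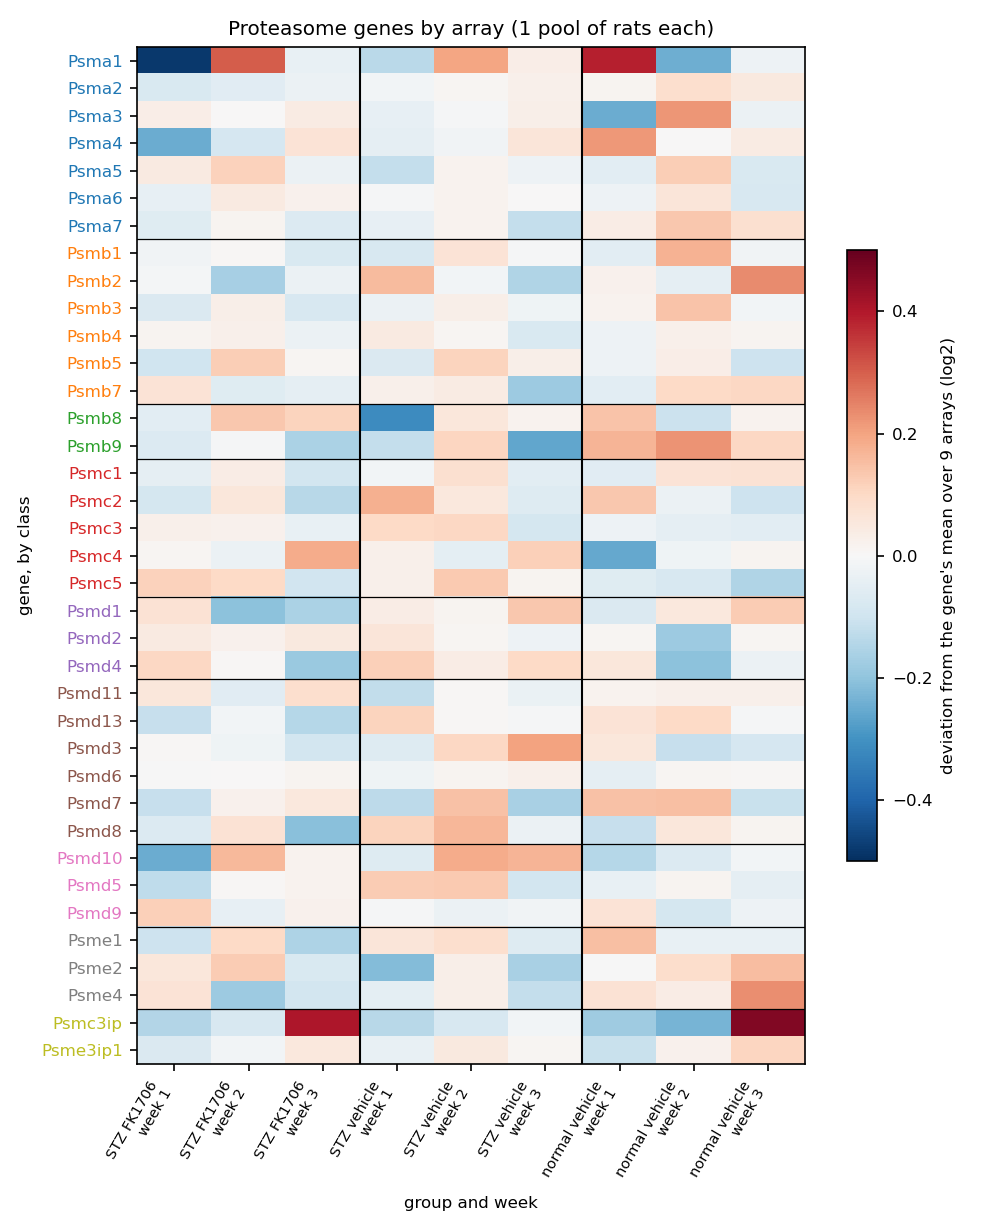
Deviation of each of the 37 proteasome genes from its own mean over 9 arrays (log2, colour), by class (rows) and by group and week (columns, 1 pool each). Most cells lie close to 0, and the strongest colours belong to Psma1 (range 0.87) and Psmc3ip (range 0.69).

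Promoter windows, from 250 bases before to 50 bases after an annotated start, were taken from RefSeq (GRCr8) and matched 35 of the 37 members. Psma7 and Psmd6 are named only. The start used was not always the outer end of the gene. The windows of Psme2, Psma6 and Psmd11, among others, lay inside the gene's annotated span. The windows of 4 members are shown because these had the largest moderated t in STZ vehicle against normal vehicle (Psmc5 and Psme2) and in week 2 against week 1 (Psmd10 and Psmb5). Capitals mark any match, on either strand, to TGACNNNGC (the core of the antioxidant response element, bound by Nfe2l1 and Nfe2l2), CCAAT (the NF-Y box), GGGCGG (the GC box) or AANNGAAA (the core bound by interferon regulatory factors).
Psmc5, chr10:91687303-91687602, plus strand: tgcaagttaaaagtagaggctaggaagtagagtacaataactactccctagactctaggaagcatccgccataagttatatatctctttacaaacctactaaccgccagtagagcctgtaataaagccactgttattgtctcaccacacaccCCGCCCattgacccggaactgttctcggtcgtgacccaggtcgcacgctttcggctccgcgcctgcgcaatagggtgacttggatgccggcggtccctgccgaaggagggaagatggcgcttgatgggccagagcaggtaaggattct
Psme2, chr15:33052702-33053001, minus strand: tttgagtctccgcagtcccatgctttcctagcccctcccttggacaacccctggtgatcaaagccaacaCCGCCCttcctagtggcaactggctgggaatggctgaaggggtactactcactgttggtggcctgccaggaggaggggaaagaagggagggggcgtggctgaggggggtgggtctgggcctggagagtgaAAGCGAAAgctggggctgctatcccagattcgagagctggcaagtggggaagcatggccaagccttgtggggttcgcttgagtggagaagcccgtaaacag
Psmd10, chrX:109453556-109453855, minus strand: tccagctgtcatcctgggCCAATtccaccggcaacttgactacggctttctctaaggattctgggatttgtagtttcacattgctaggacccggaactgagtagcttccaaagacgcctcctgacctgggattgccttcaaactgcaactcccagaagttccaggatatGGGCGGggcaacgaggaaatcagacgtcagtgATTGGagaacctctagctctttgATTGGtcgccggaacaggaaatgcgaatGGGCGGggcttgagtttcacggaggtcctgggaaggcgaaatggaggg
Psmb5, chr15:32047330-32047629, minus strand: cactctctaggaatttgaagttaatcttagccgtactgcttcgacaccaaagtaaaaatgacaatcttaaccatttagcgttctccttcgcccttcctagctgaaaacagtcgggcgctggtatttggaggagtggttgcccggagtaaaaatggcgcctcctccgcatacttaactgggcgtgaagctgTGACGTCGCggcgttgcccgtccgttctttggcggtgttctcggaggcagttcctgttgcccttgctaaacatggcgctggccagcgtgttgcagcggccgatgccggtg
The Psmb5 window held the antioxidant response core, with its first base 60 bases before the start. The Psme2 window held the interferon regulatory factor core 51 bases before the start used. That start lies inside the gene, whose annotated span runs to chr15:33053055, beyond the window. The Psmd10 window held 3 CCAAT and 2 GGGCGG matches.

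Across the 35 member windows, the antioxidant response core was present in 7 (20%), namely Psma3, Psmb2, Psmb5, Psmd1, Psmd3, Psmd9 and Psme4, against 12.2% of 27457 windows in the table. CCAAT was present in 20 (57.1%), against 37.7% of all windows, and GGGCGG in 24 (68.6%), against 34.9%. The interferon regulatory factor core was present in 13 (37.1%), against 25.9% of all windows. Psmb8, Psme1 and Psme2 were among them, but so were constitutive core genes such as Psma2, Psma4 and Psmb3. The immunosubunit Psmb9 had no match. Member windows were also richer in G and C, with a median of 56.0% against 52.3%, and no test was made of these shares. A match says only that these letters are in the window, and matches to different motifs may overlap.

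In STZ vehicle against normal vehicle, the question was whether diabetes shifts the proteasome program of the ganglion. Proteasome genes stayed within narrow bounds. The 36 members had a median log2 difference of -0.01, against 0.00 over all genes, and ran from -0.20 for Psme2 to 0.17 for Psmd10. With limma and Benjamini-Hochberg adjustment over 6990 genes, 0 members passed an adjusted p of 0.05, as 0.1% of all genes did, and 1 had an unadjusted p under 0.05, as 8.63% of all genes did. The 95% interval of the difference lay within 1.5-fold in either direction for 36 of 36 members (89.9% of all genes) and within 1.2-fold for 20 of 36 (19.4% of all genes). In pooled ganglia, fewer cells of a type and less RNA per cell cannot be told apart.

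Among the ATPases of the cap base, Psmc5 had log2 signals of 11.24, 11.35 and 11.23 in the STZ vehicle pools of weeks 1, 2 and 3, against 11.16, 11.14 and 11.07 in the normal vehicle pools. Every STZ vehicle pool lay above every normal vehicle pool. The group means were 11.27 ± 0.063 in STZ vehicle and 11.12 ± 0.047 in normal vehicle (SD, n = 3 each), a log2 difference of 0.15 (SE 0.067, 95% interval 0.006 to 0.30, limma adjusted p = 0.556). It is the member with the unadjusted p under 0.05, and the difference did not pass after adjustment. Psmc4 differed by 0.12 (SE 0.078, adjusted p = 0.690) and Psmc3 by 0.08 (SE 0.072, adjusted p = 0.775). Of the 5 ATPase genes, 4 had a positive difference, with a median of 0.08, against 3508 positive of all 6990 genes tested.

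Psme2, which encodes a subunit of the interferon-inducible PA28 activator, had the largest negative difference of the members tested. It had 9.51, 9.76 and 9.57 in the STZ vehicle pools, against 9.73, 9.82 and 9.88 in the normal vehicle pools. The groups overlapped, since the week 2 STZ vehicle pool lay above the week 1 normal vehicle pool. The log2 difference was -0.20 (SE 0.091, 95% interval -0.40 to 0.003, adjusted p = 0.577), and it was negative within each week (-0.22, -0.06 and -0.32). Its partner in the activator, Psme1, differed by 0.0004 (SE 0.094, adjusted p = 0.999). Psme4, a nuclear activator of the core, differed by -0.16 (SE 0.10, adjusted p = 0.657) on its brightest probe set. Its other probe sets gave -0.03 and 0.24, so the direction for Psme4 depends on the probe set.

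Psmd10, a chaperone that holds Psmc4 during assembly of the cap base, had 9.49, 9.74 and 9.72 in the STZ vehicle pools, against 9.41, 9.48 and 9.54 in the normal vehicle pools. The week 1 STZ vehicle pool lay among the normal vehicle pools, and the other two lay above them. The log2 difference was 0.17 (SE 0.090, adjusted p = 0.60). The chaperones Psmd5 and Psmd9 differed by 0.08 and -0.003. Psmd4, a ubiquitin receptor of the cap, differed by 0.15 (SE 0.090, adjusted p = 0.656). The 9 non-ATPase subunits of base and lid had a median of 0.03, with 6 positive, against 3508 of all 6990 genes.

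In the core particle, 11 of 14 genes had a negative difference and 3 a positive one, with a median of -0.04. Over all 6990 genes tested, 3482 were negative and 3508 positive. Psma7, an alpha subunit, had 10.97, 11.03 and 10.89 in the STZ vehicle pools, against 11.05, 11.14 and 11.09 in the normal vehicle pools, without overlap. Its log2 difference was -0.13 (SE 0.065, 95% interval -0.27 to 0.01, adjusted p = 0.577). The chymotrypsin-like subunit Psmb5 differed by 0.05 (SE 0.060, adjusted p = 0.817) and the trypsin-like subunit Psmb7 by -0.09 (SE 0.075, adjusted p = 0.754). Among the immunosubunits, Psmb8 had 7.69, 8.06 and 8.02 in the STZ vehicle pools, against 8.15, 7.90 and 8.02 in the normal vehicle pools, a difference of -0.10 (SE 0.140, adjusted p = 0.868) whose sign changed between weeks. Psmb9, below the filter and not tested, had 7.19, 7.41 and 7.05 in the STZ vehicle pools, against 7.47, 7.53 and 7.41 in the normal vehicle pools. Its difference was -0.26, lower than that of any member tested, and its mean of 7.30 lay just under the filter of 7.36.

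Some 5 members were higher in STZ vehicle in each of the 3 weeks (14.8% of all genes were), and 7 were lower in each week (16.1% of all genes). These shares of 36 lie near those of all genes. Markers of other cells, read from 10 lists, also differed between these pools. The median difference was -0.23 over 9 Schwann cell markers, of which 0 passed and 5 were lower at an unadjusted p under 0.05, and the summed linear signal of that list was 39082 to 44316 in STZ vehicle and 44694 to 45411 in normal vehicle. Of 8 fibroblast markers, 3 passed as lower, the median was -0.38 and the sum was 22006 to 27829 in STZ vehicle and 27726 to 37139 in normal vehicle. The 14 sensory neuron markers had a median of 0.07 and a sum of 71618 to 71790 in STZ vehicle, against 69692 to 70998 in normal vehicle. Of these markers, 0 passed and 2 were higher at an unadjusted p under 0.05. Satellite glia (7 genes, median -0.07), endothelium (3 genes, -0.10), skeletal muscle (9 genes, -0.41), lymphocyte (2 genes, 0.19) and red blood cell (2 genes, 0.02) lists had 0 genes at an unadjusted p under 0.05. The skeletal muscle median was 0.32, -1.90 and 0.11 within weeks 1, 2 and 3, so its sign changed between weeks.

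Immune cells other than lymphocytes were read beside Psme2 and Psmb8, which are inducible by interferon. Of 6 neutrophil and mast cell markers on the array, 4 were above the filter, with a median of -0.68, 0 that passed and 3 with a lower level before adjustment (unadjusted p under 0.05). The summed linear signal of the 6 was 1095 to 1888 in STZ vehicle and 1732 to 2363 in normal vehicle, and the medians within weeks 1, 2 and 3 were -0.23, -0.29 and -1.38. The 7 macrophage markers tested had a median of -0.16, with 0 that passed and 1 lower before adjustment, and it was negative in each week (-0.18, -0.14 and -0.23). The sum over the 9 macrophage markers on the array was 4532 to 5041 in STZ vehicle and 4853 to 5525 in normal vehicle. The part of these cell type markers in the small differences of the proteasome genes was not tested.

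In STZ FK1706 against STZ vehicle, the question was whether treatment of diabetic rats alters these genes. The median difference of the 36 members was -0.02, against 0.001 over all genes, and ran from -0.16 for Psmd1 to 0.15 for Psme2. Psme4 differed by -0.02 on its brightest probe set, but its other probe sets gave -0.22 and -0.17. With limma, 0 members passed (0% of all genes) and 0 had an unadjusted p under 0.05 (3.13% of all genes). The 95% interval lay within 1.5-fold for 36 of 36 members (92.6% of all genes) and within 1.2-fold for 21 (25.3% of all genes). In each of the 3 weeks, 3 members were higher and 7 lower in STZ FK1706 (12.3% and 11.5% of all genes).

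The lid subunit Psmd8 had 10.49, 10.62 and 10.34 in the STZ FK1706 pools, against 10.66, 10.72 and 10.52 in the STZ vehicle pools, and was lower in each week while the ranges overlapped. Its difference was -0.15 (SE 0.079, 95% interval -0.33 to 0.02, adjusted p = 0.999). Psmd1, the large scaffold of the base, differed by -0.16 (SE 0.105, adjusted p = 0.999), with within-week values of 0.04, -0.22 and -0.29. Psmd13, another lid subunit, differed by -0.13 (SE 0.091, adjusted p = 0.999). The 9 non-ATPase subunits had a median of -0.11, with 6 negative, and the 5 ATPases a median of -0.04, with 4 negative. Over all 6990 genes tested, 3468 were negative.

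Psme2 had 9.79, 9.86 and 9.65 in the STZ FK1706 pools, against 9.51, 9.76 and 9.57 in the STZ vehicle pools, and was higher in each week with overlapping ranges. The difference was 0.15 (SE 0.091, 95% interval -0.05 to 0.35, adjusted p = 0.999). Psme1 differed by -0.08 (SE 0.094) and Psmb8 by 0.14 (SE 0.140), each with an adjusted p of 0.999. Psmb8 had 7.95, 8.14 and 8.12 in the STZ FK1706 pools, against 7.69, 8.06 and 8.02 in the STZ vehicle pools, and Psmb9 had 7.24, 7.30 and 7.15 in STZ FK1706, against 7.19, 7.41 and 7.05 in STZ vehicle. The catalytic subunits Psmb5 and Psmb7 differed by -0.01 (SE 0.060) and 0.03 (SE 0.075). Core genes as a class had a median of -0.003, with 7 positive and 7 negative. In the same comparison the neutrophil and mast cell list had a median of 0.47, with 0.013 at week 1, -0.24 at week 2 and 1.498 at week 3, and its summed signal was 1388 to 2803 in STZ FK1706 and 1095 to 1888 in STZ vehicle. Its part in the values of Psme2 and Psmb8 was not tested. The macrophage, fibroblast and Schwann cell lists had medians of 0.05, 0.05 and 0.02.

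In STZ FK1706 against normal vehicle, which shares its pools with the other comparisons, the median of the 36 members tested was -0.01, against 0.00 over all genes. Their differences ran from -0.18 for Psme4 to 0.14 for Psmc4. The other probe sets of Psme4 gave -0.25 and 0.07, so its direction depends on the probe set. With limma, 0 members passed (0.0143% of all genes) and 0 had an unadjusted p under 0.05 (8.17% of all genes). The 95% interval lay within 1.5-fold for 36 of 36 (89.4% of all genes) and within 1.2-fold for 22 (20.3% of all genes). Psmc5 differed by 0.14 (SE 0.067, 95% interval -0.01 to 0.28, adjusted p = 0.631), Psmc4 by 0.14 (SE 0.078, adjusted p = 0.645) and Psma7 by -0.12 (SE 0.065, adjusted p = 0.636). Psmb2, a core beta subunit, differed by -0.14 (SE 0.095, adjusted p = 0.705). Psmb9, below the filter and not tested, differed by -0.24, with every STZ FK1706 pool below every normal vehicle pool. Members higher in each week numbered 4 and members lower in each week 6, against 13.3% and 14.2% of all genes. Marker lists differed here too, with 0 genes passing in any of the 10, while 5 fibroblast, 4 Schwann cell and 4 skeletal muscle genes were lower before adjustment. Of the sensory neuron markers, 4 were higher and 1 lower before adjustment. The satellite glia, endothelium and macrophage lists had 1 lower gene each. The medians were -0.44 over fibroblast, -0.20 over Schwann cell, -0.63 over skeletal muscle, -0.20 over neutrophil and mast cell and -0.17 over macrophage markers, against 0.06 over sensory neuron markers. The summed fibroblast signal was 24016 to 29340 in STZ FK1706 and 27726 to 37139 in normal vehicle, and the summed skeletal muscle signal was 2701 to 4447 in STZ FK1706 and 3315 to 6915 in normal vehicle. Their part in the values of the proteasome genes was not tested.

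**Figure D3:**
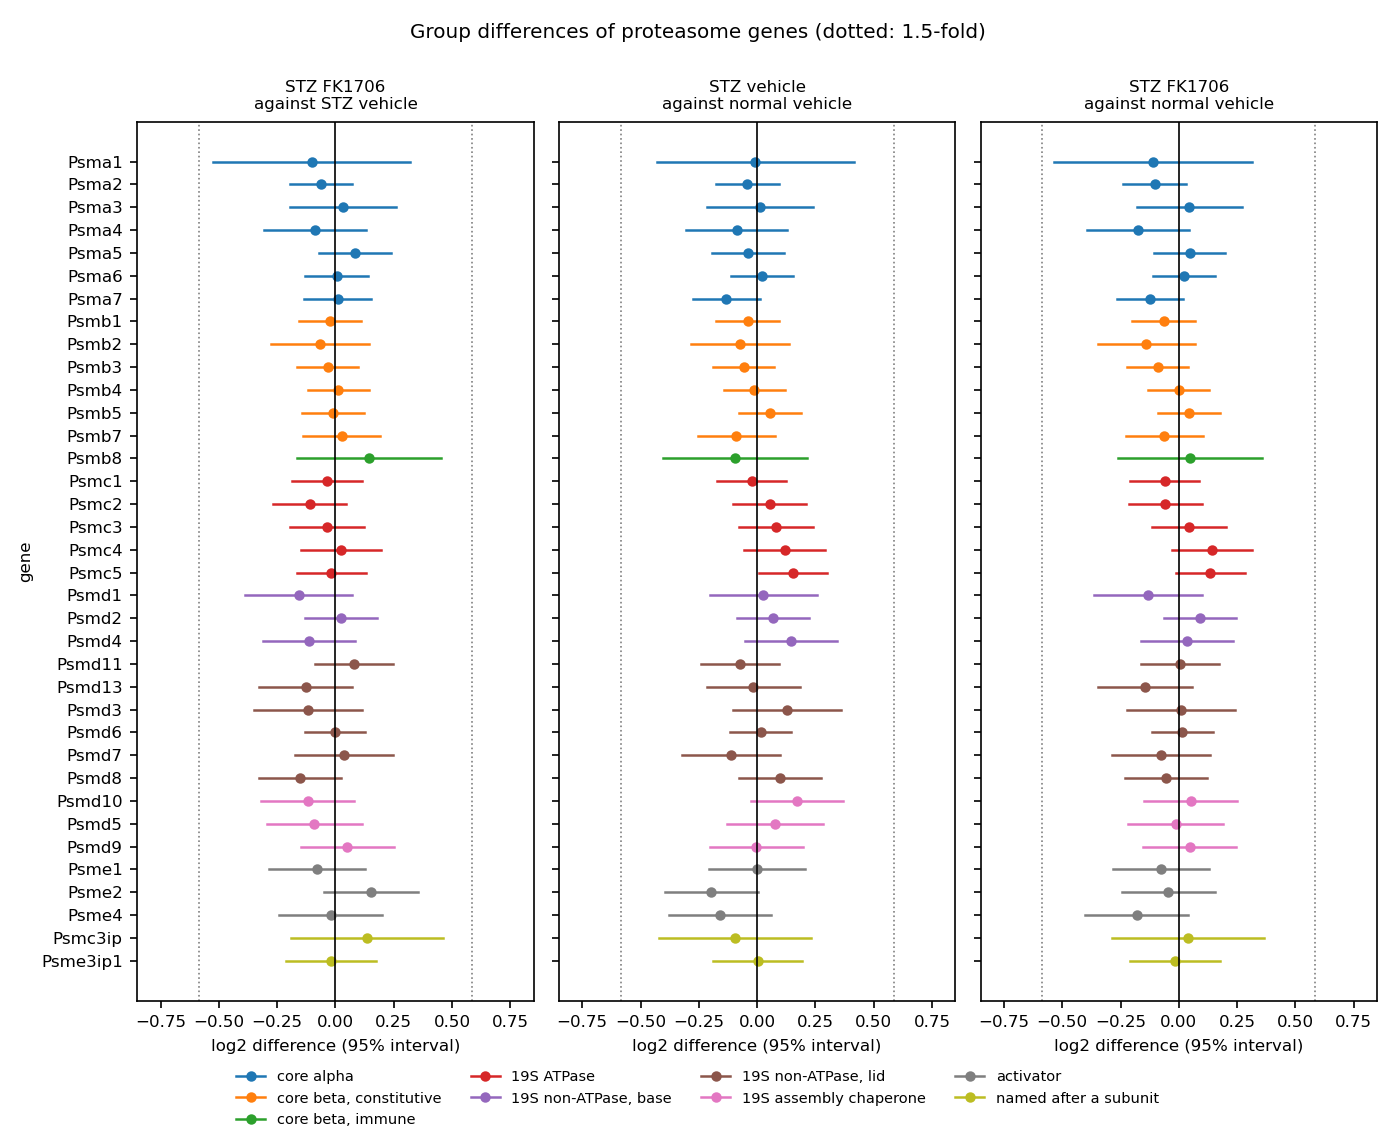
Log2 differences of the 36 proteasome genes tested in 3 comparisons of groups (points, with 95% intervals from limma as lines), coloured by class; dotted lines mark 1.5-fold. All 36 intervals in each panel lie between the dotted lines, and in STZ vehicle against normal vehicle the interval of Psmc5 (0.006 to 0.30) excludes 0.

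Core and regulatory genes were then set side by side. The core median minus the regulatory median was -0.06 for STZ vehicle against normal vehicle, with -0.08, -0.12 and 0.04 within weeks 1, 2 and 3 (SD 0.081). With the strict definition, which sets the 13 constitutive core genes against the 14 cap subunits, it was -0.10, from -0.07, -0.11 and 0.01 within weeks. The gap was 0.02 (SD over weeks 0.025) between STZ FK1706 and STZ vehicle, and -0.06 (SD over weeks 0.061) between STZ FK1706 and normal vehicle. Each gap was under 0.1 by name. The within-week values of STZ vehicle against normal vehicle took both signs, as did those of STZ FK1706 against STZ vehicle (-0.01, 0.03 and 0.001). Those of STZ FK1706 against normal vehicle were negative in each week, at -0.09, -0.13 and -0.007. With the strict definition they were -0.08, -0.12 and -0.04. The normal vehicle pool of week 2 held the highest of 9 values for 7 of the 14 core genes, with a median core deviation of 0.07 and a regulatory one of -0.01. The share of all genes with their highest value in that pool was not computed. That pool also had the highest summed skeletal muscle signal of the 9, at 6915. The sum was 3315 and 4323 in the normal vehicle pools of weeks 1 and 3. It was 2711 to 4615 in STZ vehicle and 2701 to 4447 in STZ FK1706. The part of muscle tissue in the core values was not tested. No test was run on these class medians, since genes measured on the same arrays are not independent replicates.

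**Figure D4:**
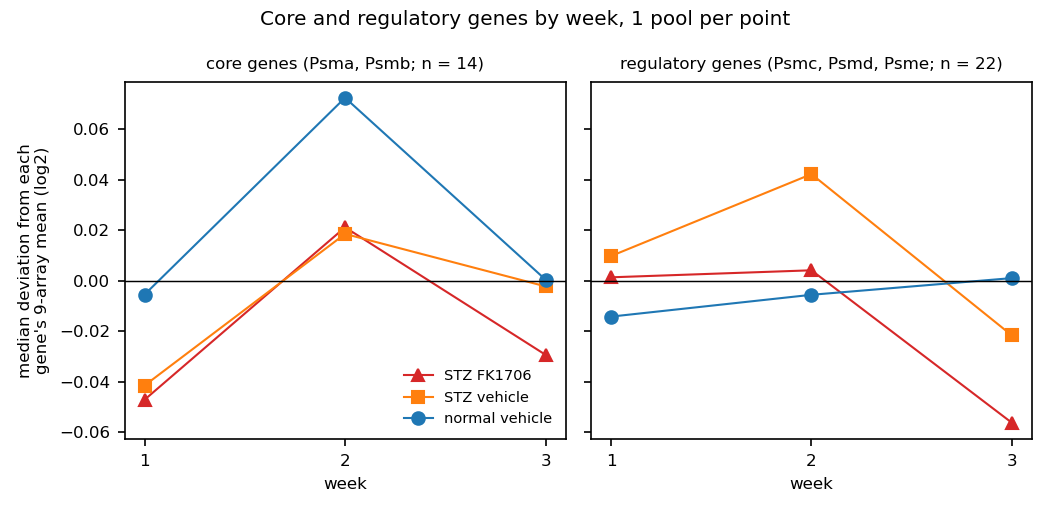
Median deviation from each gene's mean over 9 arrays (log2), for the 14 core genes (left) and the 22 regulatory genes (right) by week, with 1 pool per point; STZ FK1706 is red, STZ vehicle orange and normal vehicle blue. Every median lies between -0.06 and 0.07, and the core median is highest at week 2 in each of the 3 groups.

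Between weeks, core genes were on balance higher at week 2 than at week 1 and lower at week 3 than at week 2, by amounts that did not pass for any member. In week 2 against week 1, the median was 0.03 over all members, 0.09 over core genes and 0.02 over regulatory genes, against 0.003 over all genes tested. The difference was positive for 12 of 14 core genes, against 3564 of all 6990 genes tested. With limma, 0 members passed (0.0143% of all genes) and 2 had an unadjusted p under 0.05 (5.79% of all genes). Members higher at week 2 in each of the 3 groups numbered 15, against 14.4% of all genes, and 4 were lower in each, against 12.3%. Of the 14 core genes, 7 were higher at week 2 in each group. The core minus regulatory gap by name was 0.07, with 0.04, 0.004 and 0.07 within STZ FK1706, STZ vehicle and normal vehicle. Each week was a separate set of 3 arrays, so week and any array processing that went with it cannot be told apart. The 95% interval lay within 1.5-fold for 35 of 36 members (92% of all genes), the exception being Psma1.

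Psmd10 had week 2 signals of 9.71, 9.74 and 9.48 in the STZ FK1706, STZ vehicle and normal vehicle pools, against 9.30, 9.49 and 9.41 at week 1. It was higher at week 2 in each group, by 0.41, 0.25 and 0.07, while the ranges overlapped slightly. The log2 difference was 0.24 (SE 0.090, 95% interval 0.04 to 0.44, adjusted p = 0.817). The chymotrypsin-like subunit Psmb5 had 12.17, 12.15 and 12.08 at week 2, against 11.94, 11.97 and 12.02 at week 1, without overlap. It differed by 0.15 (SE 0.060, 95% interval 0.02 to 0.29, adjusted p = 0.817). Psmb1, a core beta subunit without a catalytic site, differed by 0.13 (SE 0.061, adjusted p = 0.845) and the alpha subunit Psma5 by 0.13 (SE 0.070, adjusted p = 0.902), each positive in all 3 groups. In the same comparison, 1 of 8 fibroblast markers passed as lower, with a list median of -0.43, which moved with the week and whose part was not tested. The Schwann cell list had a median of -0.14, with 3 of 9 genes lower at an unadjusted p under 0.05. The red blood cell list had -0.37 (2 genes) and the skeletal muscle list 0.53 (9 genes), the latter with a sign that differed between groups. Their part was not tested either.

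In week 3 against week 2, the median was -0.06 over members and over core genes and -0.01 over regulatory genes, against -0.01 over all genes. The difference was negative for 10 of 14 core genes, against 3605 of all 6990 genes tested. The core minus regulatory gap by name was -0.05, with -0.02, -0.02 and -0.06 within STZ FK1706, STZ vehicle and normal vehicle. With the strict definition it was -0.03, and positive within STZ FK1706 (0.008). With limma, 0 members passed (0.0143% of all genes), and Psmc3ip had an unadjusted p under 0.05 (10.1% of all genes did). In each of the 3 groups, 13 members were lower at week 3 (17.4% of all genes), 7 of them core genes, and 5 were higher (14.7%). Psmd8 differed by -0.17 (SE 0.079, adjusted p = 0.506) and Psmb5 by -0.11 (SE 0.060, adjusted p = 0.562). The 95% interval lay within 1.5-fold for 35 of 36 members (87.7% of all genes), the exception being Psmc3ip.

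In week 3 against week 1, the end of the series against its start, the median was 0.003 over members, 0.01 over core genes and -0.03 over regulatory genes. The core minus regulatory gap by name was 0.04, with 0.05, 0.07 and 0.002 within STZ FK1706, STZ vehicle and normal vehicle. With limma, 0 members passed (0.0143% of all genes), and 4 had an unadjusted p under 0.05 (12.7% of all genes). Members higher at week 3 in each group numbered 8 and members lower 7, against 18.1% and 18.5% of all genes, and 35 of 36 intervals lay within 1.5-fold (85.7% of all genes). Psmc2, an ATPase, had 11.45, 11.52 and 11.48 at week 3 in the STZ FK1706, STZ vehicle and normal vehicle pools, against 11.50, 11.76 and 11.72 at week 1, with overlap only through the STZ FK1706 pool of week 1. It differed by -0.18 (SE 0.071, adjusted p = 0.343). Psmc4, of the same ATPase ring, had 10.89, 10.83 and 10.73 at week 3, against 10.72, 10.73 and 10.46 at week 1, the lowest week 3 pool lying just under the highest week 1 pool, and differed by 0.18 (SE 0.078, adjusted p = 0.368). Psmd10 differed by 0.21 (SE 0.090, adjusted p = 0.367). The fibroblast list had a median of -0.36 in this comparison, with 0 that passed and 6 of 8 lower at an unadjusted p under 0.05. Its part in the week differences was not tested.

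Psmc3ip, which is not a proteasome subunit, showed the largest week difference of the 36. It had 8.24, 7.82 and 8.30 at week 3 in the STZ FK1706, STZ vehicle and normal vehicle pools, against 7.69, 7.70 and 7.66 at week 1. The week 3 pools lay above the week 1 pools, with the STZ vehicle pool closest. The log2 difference was 0.44 (SE 0.148, 95% interval 0.11 to 0.76, adjusted p = 0.269).

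**Figure D5:**
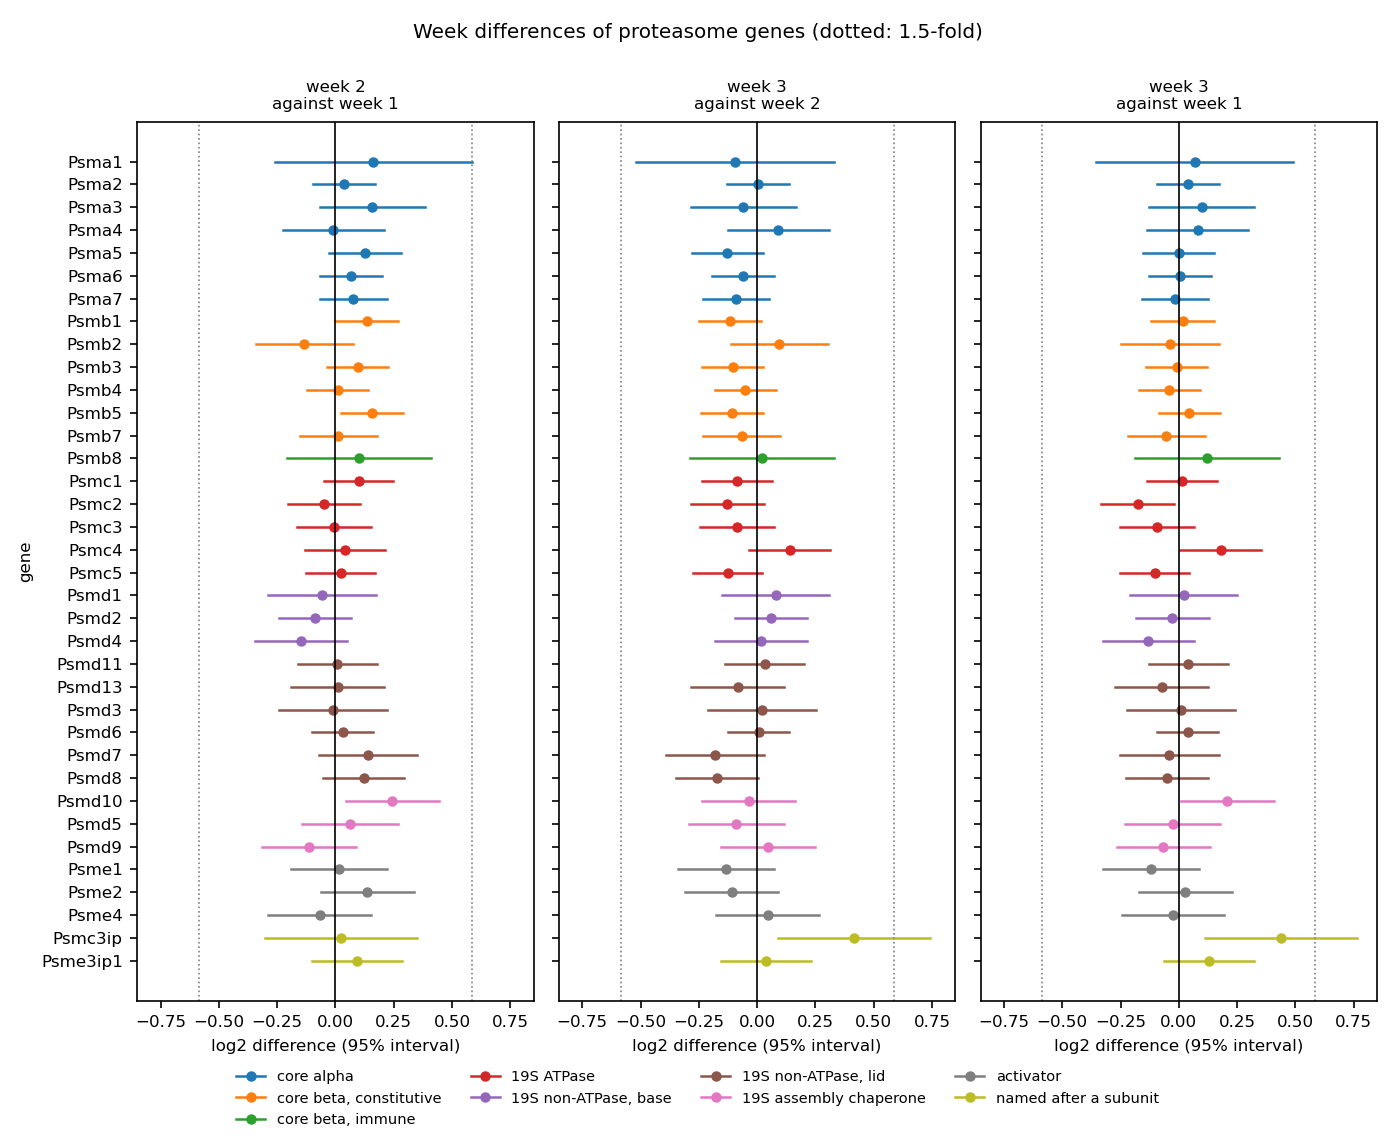
Log2 differences of the 36 proteasome genes tested between weeks (points, with 95% intervals from limma as lines), coloured by class; dotted lines mark 1.5-fold. Psmc3ip lies farthest to the right in week 3 against week 1 (0.44) and in week 3 against week 2 (0.41), and the intervals of Psmd10 and Psmb5 exclude 0 in week 2 against week 1.

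A moderated F test over the 3 weeks passed 0 members (0.0572% of all genes), and Psmc3ip and Psmd10 had an unadjusted p under 0.05, as 10.5% of all genes did. A separate model asked whether a group difference changed linearly with week. With limma, 0 members passed in any of the 3 comparisons, as 0% of all genes did, and 1 member had an unadjusted p under 0.05 in STZ vehicle against normal vehicle (4.06% of all genes). That member was Psmb2, which had 10.88, 10.71 and 10.57 in the STZ vehicle pools of weeks 1, 2 and 3, against 10.74, 10.67 and 10.96 in the normal vehicle pools. Its difference changed by -0.26 per week (SE 0.099, adjusted p = 0.999), with differences of 0.14, 0.03 and -0.39 within weeks 1, 2 and 3. In STZ FK1706 against STZ vehicle and against normal vehicle, 0 members had an unadjusted p under 0.05 for the linear term, against 3.48% and 4.94% of all genes.

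Genes that assemble, regulate or feed the proteasome were read from lists chosen for their function. In the 3 comparisons of groups, 0 genes of these 7 lists passed in limma. Of 12 genes for assembly and associated factors, 3 had an unadjusted p under 0.05 in STZ vehicle against normal vehicle: the adaptor Ecpas at 0.27 (SE 0.108, adjusted p = 0.531), and the assembly chaperones Psmg3 at -0.24 (SE 0.105, adjusted p = 0.553) and Psmg2 at -0.22 (SE 0.096, adjusted p = 0.556). In STZ FK1706 against normal vehicle, Psmg3 stood at -0.27 and Psmg4 at -0.26. Of 9 regulators of proteasome genes, Nfe2l2, an activator that binds the antioxidant response element, differed by -0.24 (SE 0.095, adjusted p = 0.531) in STZ vehicle against normal vehicle and by -0.28 (adjusted p = 0.501) in STZ FK1706 against normal vehicle. Foxo3, a transcription factor of catabolic programs, differed by 0.20 (adjusted p = 0.535) and 0.19 (adjusted p = 0.588) in the same comparisons. Nfe2l1, the factor that raises proteasome genes when proteolysis is impaired, differed by 0.15 (SE 0.111, adjusted p = 0.999) in STZ FK1706 against STZ vehicle.

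Of 24 ubiquitin-conjugating E2 genes, 3 had an unadjusted p under 0.05 in STZ vehicle against normal vehicle, and 3 in STZ FK1706 against normal vehicle, which uses the same normal vehicle pools. Ube2d2 differed by 0.34 (SE 0.086, adjusted p = 0.316) and 0.47 (adjusted p = 0.146), Ube2b by 0.34 (SE 0.117, adjusted p = 0.457) and 0.49 (adjusted p = 0.288), and Ube2v2 by -0.28 (SE 0.122, adjusted p = 0.554) and -0.45 (adjusted p = 0.308), the value against normal vehicle being given for STZ vehicle and then for STZ FK1706. Among 7 ubiquitin, ubiquitin-like and E1 genes, Uba3, an E1 subunit for Nedd8, differed by 0.30 (adjusted p = 0.569) in STZ vehicle against normal vehicle. Among 16 substrate delivery genes, Get4 differed by 0.27 (adjusted p = 0.999) in STZ FK1706 against STZ vehicle and Bag6, which acts with Get4, by -0.52 (adjusted p = 0.553) in STZ FK1706 against normal vehicle. Both also differed between weeks. In week 3 against week 1, Bag6 stood at -0.80 (limma adjusted p = 0.159) and Get4 at 0.28 (limma adjusted p = 0.265). These functional lists are otherwise given for comparisons of groups only. Of 10 class I antigen processing genes, which include Psmb8, Psme1 and Psme2, 0 had an unadjusted p under 0.05 in the comparisons of groups. Of 11 ubiquitin ligase genes, Smurf1 had one, at 0.31 (adjusted p = 0.594) in STZ FK1706 against normal vehicle. These counts stand against 8.63%, 3.13% and 8.17% of all genes at an unadjusted p under 0.05 in STZ vehicle against normal vehicle, STZ FK1706 against STZ vehicle and STZ FK1706 against normal vehicle.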

How the data were processed

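RNA from L4 to L6 ganglia was hybridised to 9 one-colour arrays, each a pool of 5 rats. The deposited values are a linear intensity per probe set made with MAS5, per the submitters' processing notes; its version, scaling and background steps are not given in the sources used here. Probe sets were named from the platform's annotation: of 15866 that are not controls, 12783 had 1 symbol, 312 several and 2771 none, and 12748 of the named ones matched a GRCr8 Entrez identifier, which changed 0 symbols. An offset of 18.4 (10th percentile) was added, log2 taken and arrays quantile normalized. The brightest probe set stood for a gene, and genes were tested when their mean reached log2 7.36, the 40th percentile over probe sets. limma 3.58.1 in R 4.3.3 (lmFit, eBayes with a trend) took the 3 groups and 3 weeks as factors in a fit to the 9 arrays that left 4 residual degrees of freedom. Tests were two-sided, with Benjamini-Hochberg adjustment over 6990 genes and a threshold of 0.05. A linear week term per group had 2 residual degrees of freedom.

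The labels give every group 1 pool per sampling week, so week served as the replicate block. Deviations from group means correlated between same-week arrays with r from 0.00966 to 0.325. The models were also run on simulated data in which genes varied independently, unlike genes measured on the same arrays. The outcome of that run is not given here and is not used as support. Members and lists were chosen with earlier results of these data known. Genes given with full statistics were drawn from the catalytic and immune subunits, Psme1 and Psme2, and the members of each class with the largest moderated t in a comparison. Not all of these are given in every comparison, and Psmb7, Psmb8, Psme1 and Psme2 are not given between weeks. Psmd6, Psma1 and Psmc3ip were added after their values had been seen. The interferon regulatory factor motif replaced a longer one after the windows had been searched. Alternatives were the normalization, offset, filter, probe set rule, prior, terms of the model, class definition, and each array, week or group left out.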

Additional observations from a re-analysis of the deposited data

How the results depend on the processing

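Of the 6 comparisons, 0 members passed in limma under any alternative that normalized the arrays, nor with any array left out, nor with the replicate block (week) removed from the model, which gave 0 in each comparison of groups. The pairing by week rests on the labels. On the deposited scale, 19 members passed in week 3 against week 2 and 34 in week 3 against week 1. On that scale 1607 and 5104 of 6991 genes passed, and the array-wide shift was left in the values. The part of that shift in the members' counts was not tested. The members' median there was -0.11 for STZ vehicle against normal vehicle, -0.091 for STZ FK1706 against STZ vehicle, -0.19 for STZ FK1706 against normal vehicle, -0.16 for week 2 against week 1, -0.31 for week 3 against week 2 and -0.46 for week 3 against week 1. With 75th percentile scaling the week 2 against week 1 median was 0.067. Without week 3 the STZ vehicle against normal vehicle median was 0.014. Without the STZ FK1706 group, week 2 against week 1 had a median of 0.049 and a core minus regulatory gap of 0.034, against a gap of 0.068 with all groups. Without that group the gap was -0.081 for week 3 against week 2, against -0.049 with all groups. For week 3 against week 1 it was -0.036, against 0.037 with all groups, so its sign changed. Without the STZ vehicle group the week 3 against week 2 median was -0.035. Without the normal vehicle group the medians were 0.060 for week 2 against week 1 and -0.017 for week 3 against week 1, and the gap was -0.0081 for week 3 against week 2. The causes of these changes between settings were not tested.

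With each array left out in turn, the members' median ran from -0.012 to 0.016 for STZ vehicle against normal vehicle, -0.031 to -0.013 for STZ FK1706 against STZ vehicle, -0.039 to 0.0025 for STZ FK1706 against normal vehicle, 0.033 to 0.056 for week 2 against week 1, -0.061 to -0.040 for week 3 against week 2 and -0.010 to 0.017 for week 3 against week 1. The core minus regulatory gap ran from -0.094 to -0.043, -0.010 to 0.044, -0.068 to -0.0049, 0.032 to 0.072, -0.073 to -0.0022 and -0.0088 to 0.081 in the same order. Medians this close to 0 changed sign: that of STZ vehicle against normal vehicle was positive without either of those groups' week 3 arrays, that of STZ FK1706 against normal vehicle was positive without the week 3 normal vehicle array, and that of week 3 against week 1 was negative without any 1 of the week 1 arrays or the week 3 normal vehicle array. The gap for STZ FK1706 against STZ vehicle turned negative without the week 2 STZ vehicle array, and that for week 3 against week 1 without the week 1 STZ FK1706 array. The number of arrays sets the width of the intervals, and signal over background could not be read from these values.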
